A study of Mus musculus with 17 samples.

Results

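The genes described here encode voltage-gated sodium, calcium and potassium channels, the other potassium channels, and their auxiliary subunits. They are the genes whose symbol in the array's annotation begins with Kcn, with Cacn, or with Scn and a digit. There were 119 of them among the 18193 genes measured. Each gene was read from 1 probe set, the one with the highest mean over all arrays, although 72 of the 119 genes had several. Of the 119, 3 are noncoding transcripts named after a channel gene (Kcnq1ot1, Kcnmb4os1 and Kcnmb4os2) and not channels themselves.

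Cells were sorted from embryonic cortex of the transgenic mouse hGFAP eGFP. Its green fluorescent protein (GFP) is under control of the human promoter of GFAP, a glial filament gene, and all 17 samples carry the transgene. Radial glia, the stem cells of the embryonic cortex, carry Prominin on their surface and are bright for GFP in such mice. At embryonic day 14 (E14), cells were sorted as GFP-high and Prominin-positive (4 samples, called GFP-high Prominin cells), as GFP-low and Prominin-positive (3 samples, GFP-low Prominin cells), and by GFP alone as high (3 samples, GFP-high ungated cells) or low (3 samples, GFP-low ungated cells). At embryonic day 18 (E18), GFP-positive and Prominin-positive cells were sorted without a division into high and low (4 samples, E18 cells). The labels name no drug, no second allele, no litter and no number of pooled embryos. Nothing states that replicates came from separate litters, so p-values reflect how far these samples scattered, and that scatter may be technical.

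Ion channels set the resting potential of a cell and shape its electrical signals. Voltage-gated sodium channels carry the rising phase of the action potential, voltage-gated calcium channels couple depolarisation to transmitter release and gene expression, and potassium channels repolarise the membrane. Radial glia have a resting conductance dominated by potassium and fire no action potentials, whereas postmitotic neurons acquire sodium and calcium channels as they leave the cell cycle.

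A level below is log2 of the signal plus a constant of 16, after the arrays were brought to 1 common distribution. On this scale the median of all genes was 6.30, and the constant by itself corresponds to 4. Levels of different genes come from different probes and are not compared with one another. The median level per array was 6.12 to 6.42. The 12 genes fixed as markers of radial glia all had group means above the median in both GFP-high groups, and 10 of the 12 did in GFP-low ungated cells. The 7 E14 Prominin arrays differed from the others in 2 signs of RNA quality and labelling. Their log2 ratio of 3′ to 5′ Gapdh signal was 0.54 to 2.30, and it was -0.25 to 0.18 in the 6 ungated samples and -0.21 to 1.00 in the 4 E18 samples. Their 18S ribosomal signal was 2292 to 5192, compared with 175 to 627 and 302 to 583. The part of these differences in the results was not tested. A MessageAmp kit labelled the 11 Prominin arrays and GFP-high ungated replicate 1, and an Affymetrix kit the other 5.

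Most channel genes were dim in every group. The group mean lay above the median of all genes for 21 of the 119 channel genes in GFP-high ungated cells, 28 in GFP-high Prominin cells, 38 in E18 cells, and 39 in each of the GFP-low groups. Of all genes, 48.4% to 50.3% were above it in a group. Every array of the group was above the median for 14 channel genes in GFP-high ungated cells, 21 in GFP-high Prominin cells, 30 in E18 cells, 29 in GFP-low ungated cells and 32 in GFP-low Prominin cells. No group mean of 65 channel genes exceeded the median, while 15 exceeded it in all 5 groups. A list of 14 genes of other organs, which a cortical cell should lack, had group means of 4.18 to 6.29, so a level under the median was not distinguishable here from that of a gene that is off. Against the median over all probe sets, which was 5.63, 36 channel genes were above it in GFP-high ungated cells and 46 in GFP-high Prominin cells.

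**Figure D1:**
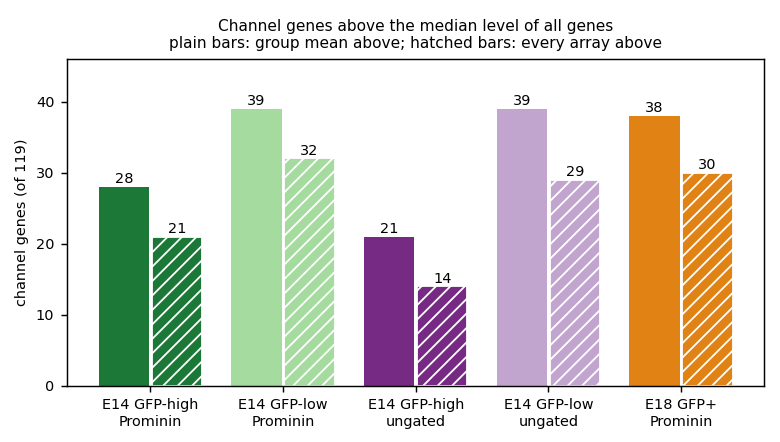
Number of the 119 channel genes above the median level of all genes in each of the 5 groups. Plain bars count genes whose group mean was above it and hatched bars genes above it on every array of the group. The fewest were above it in GFP-high ungated cells (21 and 14), and 39 group means were above it in each GFP-low group.

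The 15 genes above the median in all 5 groups covered several families. They comprised the sodium channel genes Scn3a (the pore prominent in embryonic brain) and Scn3b (a beta subunit). Among calcium channel genes they comprised Cacna1h (a T-type pore), Cacna2d1 and Cacnb1 (auxiliary subunits), and Cacng4 and Cacng7 (of the gamma family, which also regulates AMPA receptors). The potassium channel genes were Kcnd2 and Kcnd3 (A-type pores), Kcnj11 (the pore of the channel gated by ATP), Kcnk2 and Kcnk10 (leak channels of the TREK group), Kcnn1 and Kcnn2 (small-conductance channels opened by calcium) and Kcnmb4 (a subunit of the large-conductance channel). Of these, 10 were above the median on all 17 arrays. Kcnd3 varied little between groups, at 8.06 ± 0.16 (SD, n = 4) in GFP-high Prominin cells, 8.46 ± 0.26 (n = 3) in GFP-low Prominin cells, 7.92 ± 0.24 (n = 3) and 8.21 ± 0.12 (n = 3) in GFP-high and GFP-low ungated cells, and 8.31 ± 0.11 (n = 4) in E18 cells. Kcnd3 was called changed in none of the 7 comparisons.

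The families differed in how many of their genes were above the median. In GFP-low ungated cells these were 5 of 9 calcium channel pores, 8 of 15 calcium channel auxiliary genes, 4 of 8 sodium channel pores and 6 of 22 voltage-gated potassium pores, but 2 of 15 inward rectifiers and 2 of 12 leak channels with paired pore domains. In GFP-high ungated cells the counts were 1 of 9, 4 of 15, 1 of 8, 3 of 22, 2 of 15 and 3 of 12. The 3 leak channel genes above the median in GFP-high ungated cells were Kcnk2, Kcnk10 and Kcnk5. Among the genes whose group means all stayed under the median were Kcnj8, the inward rectifier subunit typical of pericytes, Kcnma1, the large-conductance pore, and Cacna1g, a T-type pore. Kcnma1 reached a group mean of 6.18 ± 0.45 (SD, n = 3) in GFP-low ungated cells, and Kcnj8 was at 4.37 to 5.22 over the groups. The peripheral nerve pores Scn10a and Scn11a were below the median in every group.

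**Figure D2:**
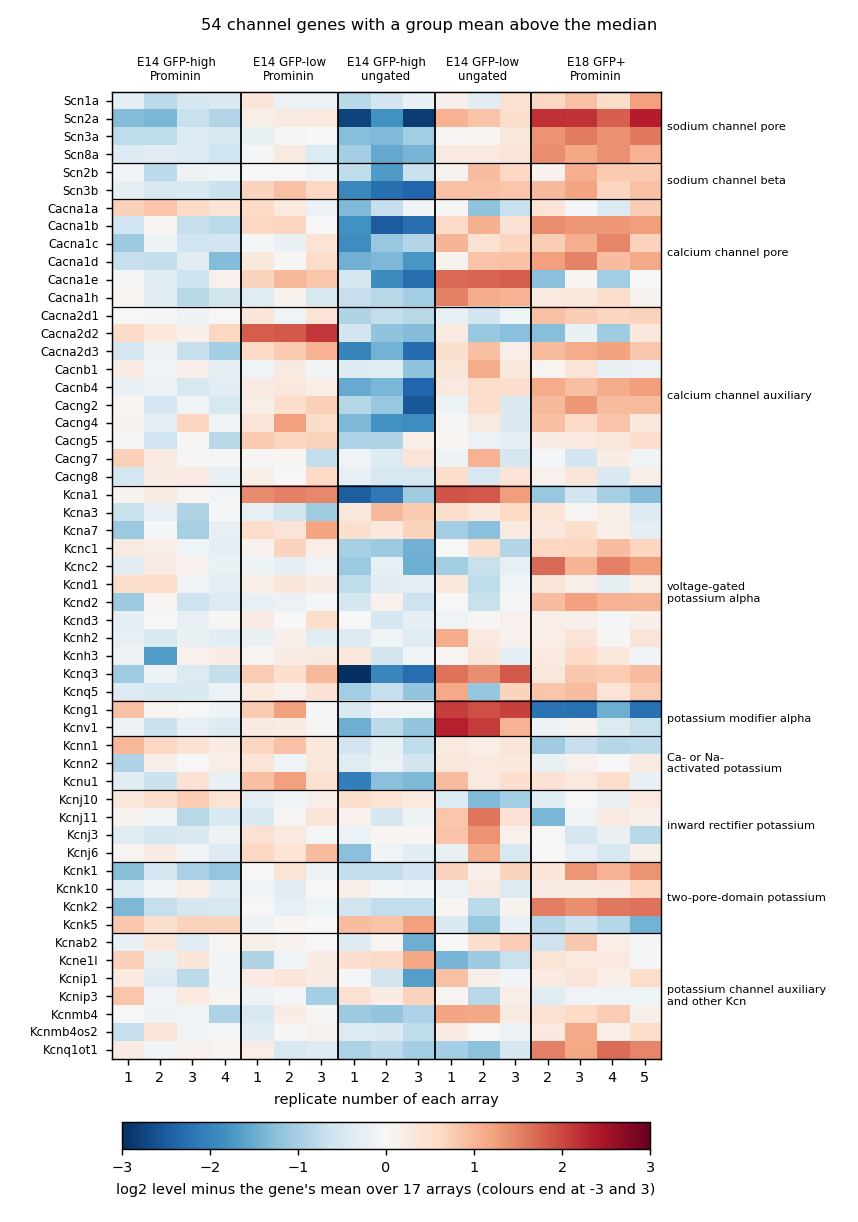
Log2 level minus the gene's own mean over the 17 arrays for the 54 channel genes with at least 1 group mean above the median, ordered by family, with 1 column per array. Blue is below and red above the gene's mean. Most sodium and calcium channel genes are blue in the 3 GFP-high ungated arrays, and Scn2a, Scn3a, Scn8a and Kcnk2 are red in the 4 E18 arrays.

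The ungated GFP-high and GFP-low samples compare cells sorted by brightness alone at E14. Here 28 of the 119 channel genes (23.5%) were called changed, against 15.8% of all genes, at a Benjamini-Hochberg adjusted p under 0.05 in limma. Of these, 25 were lower in GFP-high cells (21.0% of channel genes, against 8.16% of all genes) and 3 were higher (2.52%, against 7.61%). The median change of the 119 genes was -0.29, against -0.01 for all genes. Of the 25 that fell, 5 were sodium channel genes, 9 calcium channel genes, 2 voltage-gated potassium pores (Kcnq3 and Kcna1) and 2 potassium modifier subunits. A further 4 (Kcnma1, Kcnn1, Kcnn2 and Kcnu1) were grouped with the calcium- or sodium-activated potassium channels, by symbol and not by gating. Of the rest, 2 were leak channels (Kcnk1 and Kcnk12) and 1 was the auxiliary subunit Kcnmb4. Those that rose were the inward rectifier Kcnj10, the leak channel Kcnk5 and the auxiliary subunit Kcne1l. The 2 groups were separate, with no overlap between arrays, for 43 of the 119 genes (36.1%) and for 34.3% of all genes. Of the 28 called, 25 had a group mean above the median in at least 1 of the 2 groups.

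Sodium channel genes fell by large steps. Scn2a encodes the sodium pore of the young axon. It measured 4.21, 5.18 and 4.14 in GFP-high ungated cells against 8.02, 7.83 and 7.50 in GFP-low ungated cells. Every GFP-high array was below the median and every GFP-low array above it, and the difference was -3.27 (SE 0.32, adjusted p = 0.00106). Scn3b measured 6.64, 6.31 and 6.19 against 9.45, 9.45 and 9.40. The groups did not overlap and lay 8.30-fold apart (log2 change -3.05, SE 0.18, adjusted p = 0.000607). Scn3a differed by -1.35 (SE 0.18, adjusted p = 0.00326), but by -0.64 and without a call when its probe sets were averaged (adjusted p = 0.075). Scn8a, the pore of mature axon initial segments, fell by 1.63 (SE 0.19, adjusted p = 0.00208). Scn1a, typical of inhibitory neurons later in life, measured 5.79 ± 0.32 (SD, n = 3) against 6.41 ± 0.40 (n = 3), and that difference of -0.63 (SE 0.27) had an adjusted p of 0.184. In all, 3 of the 8 sodium pores and 2 of the 3 beta subunits were called, each lower.

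Among the potassium channels, the largest differences belonged to Kcnq3 and Kcna1. Kcnq3 encodes a subunit of the M-current channel, which limits repetitive firing. Its levels were 5.21, 6.57 and 6.23 in GFP-high ungated cells and 10.15, 9.91 and 10.37 in GFP-low ungated cells. The highest GFP-high array was thus more than 3 log2 units below the lowest GFP-low array, and the groups differed by -4.14 (SE 0.36, adjusted p = 0.000803). Kcna1, the delayed-rectifier pore Kv1.1 of axons, was at 4.89, 5.23 and 6.30 against 9.26, 9.20 and 8.62. No array of GFP-high cells exceeded the median, and the difference was -3.55 (SE 0.39, adjusted p = 0.00153). The modifier subunits Kcnv1 and Kcng1, which form no channel alone, differed by -2.98 (SE 0.37, adjusted p = 0.00232) and -2.25 (SE 0.18, adjusted p = 0.000667). For Kcng1, GFP-high arrays were at 6.16 to 6.50 and GFP-low arrays at 8.55 to 8.68, a 4.76-fold difference. Kcnu1, best known as the sperm channel Slo3, fell by 2.14 (SE 0.28, adjusted p = 0.00296). The large-conductance pore Kcnma1 and its subunit Kcnmb4 fell by 1.56 (SE 0.28, adjusted p = 0.0102) and 1.95 (SE 0.28, adjusted p = 0.00413), although with probe sets averaged Kcnma1 differed by -0.28 (adjusted p = 0.399).

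Calcium channel pores fell in 5 of 9 cases, with a median change over the 9 of -2.00. Cacna1b, the N-type pore of presynaptic terminals, measured 5.22, 4.53 and 4.77 in GFP-high against 7.61, 8.11 and 7.46 in GFP-low ungated cells. The groups did not overlap, on either side of the median, and differed by -2.88 (SE 0.26, adjusted p = 0.000895). Cacna1e, the R-type pore, fell by 3.31 (SE 0.43, adjusted p = 0.00272), from 8.32 to 8.44 in GFP-low cells to 4.36 to 6.10 in GFP-high cells. The L-type pores Cacna1d and Cacna1c fell by 2.12 (SE 0.26, adjusted p = 0.0023) and 2.00 (SE 0.30, adjusted p = 0.00498), the second with an adjusted p of 0.0547 at a constant of 1. The T-type pore Cacna1h was above the median in both groups and lay 4.24-fold lower in GFP-high cells (adjusted p = 0.00112). Of the auxiliary genes, Cacna2d3 fell by 2.45 (SE 0.30, adjusted p = 0.00216), Cacnb4 by 2.20 (SE 0.29, adjusted p = 0.00304) and Cacng4 by 1.63 (SE 0.25, adjusted p = 0.00567), whereas Cacna2d1 was at 8.71 ± 0.08 (SD, n = 3) against 9.20 ± 0.24 (n = 3), with an adjusted p of 0.133.

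The 3 genes that rose with GFP belong to 3 families, of which 2 also held genes that fell. The leak channels gave 1 called rise and 2 falls, Kcnk1 falling by 1.20 (SE 0.20, adjusted p = 0.00757, and 0.131 with probe sets averaged), the potassium auxiliary genes 1 rise and 1 fall, and the inward rectifiers 1 rise. Kcnj10 encodes Kir4.1, the inward rectifier with which astroglia take up potassium. It measured 7.19, 7.10 and 6.99 in GFP-high ungated cells and 6.28, 5.38 and 5.68 in GFP-low ungated cells. All GFP-high arrays were above the median and all GFP-low arrays under it, and the difference was 1.31 (SE 0.26, adjusted p = 0.0142). Without GFP-high ungated replicate 1 or replicate 2 the adjusted p of Kcnj10 was 0.0512 to 0.0563. Kcnk5, the leak channel TASK2, was at 6.49, 6.42 and 6.79 against 5.14, 4.43 and 5.37, a difference of 1.59 (SE 0.28, adjusted p = 0.00909, and 0.0522 at a constant of 1). Kcne1l, an auxiliary subunit with a single membrane pass, was at 6.12, 6.18 and 6.77 against 4.22, 4.51 and 4.95, a difference of 1.80 (SE 0.27, adjusted p = 0.0051). Neither gene's groups overlapped, and the GFP-low arrays of both were all under the median.

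GFP-high ungated replicate 1 was the only array of these 6 labelled with the MessageAmp kit. With it left out, so that all 5 arrays shared a kit, 25 channel genes were called, of which 22 were lower. Among all genes 1841 were then called, against 2869 with it. Kcnq3, Scn2a and Scn3b differed by -3.74, -3.12 and -3.18 without it. Markers of neurons moved with the same contrast. All 15 genes fixed as markers of postmitotic neurons were lower in GFP-high ungated cells, and their summed signal was 10953 to 11436 there and 48320 to 56462 in GFP-low ungated cells, while 11 of 12 radial glia markers and 6 of 6 basal progenitor markers were higher. The part of this difference in the channel results was not tested, and in sorted cells measured in bulk, fewer cells of a type and less RNA per cell cannot be told apart.

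The same GFP contrast among Prominin-positive cells, which shares no array with the ungated one, gave smaller differences. Of the 119 channel genes, 8 were called (6.72%, against 1.68% of all genes), all of them lower in GFP-high cells, while of all genes 1.20% were lower and 0.478% higher. For 25 channel genes (21.0%, against 13.2% of all genes) the groups did not overlap, and the median change was -0.17 against -0.01 for all genes. They were Cacna2d2 (-1.50), Cacna2d3 (-1.40), Kcna1 (-1.36), Kcnq3 (-1.31), Scn2a (-1.30), Scn3b (-1.20), Cacng5 (-1.07) and Cacna1d (-1.05). Of these 8, 6 were also called lower in ungated cells (75.0% of the 8, and 21.4% of the 28 called there), namely Cacna1d, Cacna2d3, Kcna1, Kcnq3, Scn2a and Scn3b. The direction was shared for 27 of the 28 genes called in ungated cells. These overlaps were not counted over all genes, so they are not read as a trait of channel genes.

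Kcna1 measured 7.47, 7.64, 7.46 and 7.28 in GFP-high Prominin cells against 8.78, 8.88 and 8.81 in GFP-low Prominin cells. The groups did not overlap, all arrays were above the median, and GFP-high cells were 2.56-fold lower (SE of the log2 change 0.18, adjusted p = 0.00594). Scn3b measured 8.28, 8.10, 8.11 and 7.92 against 9.25, 9.45 and 9.20, a 2.29-fold difference (SE 0.16, adjusted p = 0.00652). Scn2a was at 5.68, 5.62, 6.31 and 6.10 against 7.16, 7.25 and 7.26, so that the GFP-low arrays alone were clearly above the median (SE 0.20, adjusted p = 0.00924). Cacna2d3, an alpha-2-delta subunit that carries calcium channels to the membrane, was at 5.46 to 6.31 against 7.07 to 7.52 (SE 0.20, adjusted p = 0.00796). These 4 genes passed the test with each of the 7 arrays left out in turn. With probe sets averaged, however, Scn3b differed by -0.44 (adjusted p = 0.278) and Scn2a by -0.66 (adjusted p = 0.084), and neither was called. Kcnq3 did not pass when GFP-high replicate 4 or GFP-low replicate 1 or 3 was left out (adjusted p of 0.0644 to 0.0729).

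The other 3 calls were lost without most single arrays. Cacna2d2, another alpha-2-delta subunit, measured 6.40, 6.14, 5.99 and 6.46 in GFP-high and 7.64, 7.67 and 7.94 in GFP-low Prominin cells (SE 0.32, adjusted p = 0.0397), and the adjusted p was 0.0726 to 0.133 with any 1 array left out. Cacng5 (adjusted p = 0.0287) and Cacna1d (adjusted p = 0.0412) were each lost without 5 and 6 of the 7 arrays in turn, at 0.0534 to 0.0882 and 0.069 to 0.143. The number of channel genes called fell to 4 without GFP-high replicate 4, GFP-low replicate 1 or GFP-low replicate 3, and to 5 without GFP-low replicate 2. It was also 4 with a constant of 1 in place of 16 or with probe sets averaged. When the dimmest 40% of genes were left out before the fit, it was 16 of the 58 channel genes that remained. Calls among all genes, 305 in the main fit, moved as well. They numbered 76 to 90 in those fits without 1 array, 74 with a constant of 1, 143 with probe sets averaged and 510 without the dimmest genes. Cacna1b was lower by 0.93 (SE 0.22, adjusted p = 0.0606) and Cacna1e by 1.05 (SE 0.32, adjusted p = 0.138), and neither passed. The Prominin GFP contrast also held marker differences. Of the 15 neuron markers 8 were lower in GFP-high Prominin cells, with summed signals of 16326 to 20429 against 31107 to 33012, and of the 8 markers of Cajal-Retzius neurons 6 were lower, with sums of 664 to 812 against 3685 to 5031. Their part in the result was not tested.

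**Figure D3:**
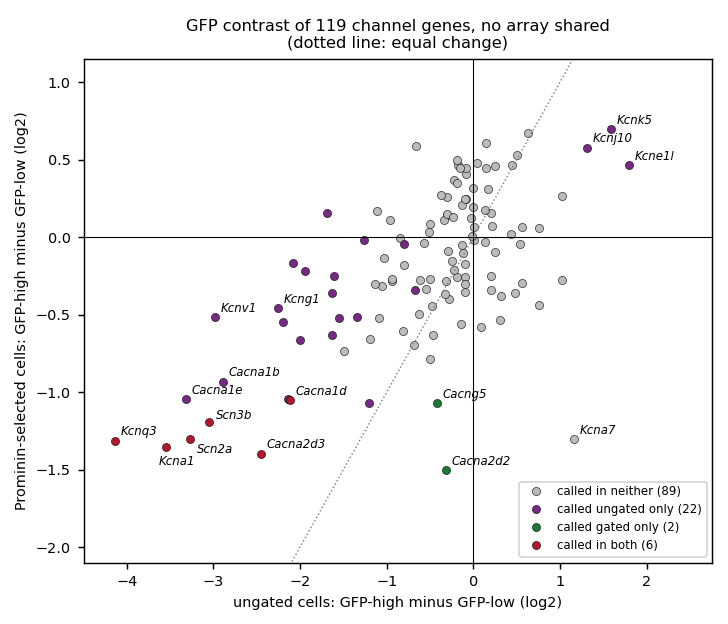
Log2 difference between GFP-high and GFP-low cells for each of the 119 channel genes, in ungated cells (horizontal) and in Prominin-selected cells (vertical). Colours mark genes called in both (6), in ungated cells alone (22), in Prominin cells alone (2) or in neither (89). The called genes of the lower left lie above the dotted line of equal change, apart from Cacng5 and Cacna2d2.

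Whether the GFP contrast differed between Prominin and ungated cells was tested directly. The contrast differed for 15 channel genes (12.6%, against 7.70% of all genes), and for 14 of them the Prominin difference was the higher value (11.8%, against 3.87% of all genes), while 1 was lower (0.84%, against 3.83%). The gap was 2.82 for Kcnq3 (SE 0.42, adjusted p = 0.000628), 2.46 for Kcnv1 (SE 0.39, adjusted p = 0.000966) and 2.27 for Cacna1e (SE 0.54, adjusted p = 0.0146, and 0.0514 at a constant of 1). Kcna1 (2.20), Scn2a (1.97), Cacna1b (1.95), Cacna1h (1.92) and Scn3b (1.86) followed, and Scn3b had the smallest adjusted p of these (0.00032). The exception was Kcna7, the pore Kv1.7. It measured 4.48, 5.56, 4.61 and 5.36 in GFP-high and 6.15, 5.98 and 6.78 in GFP-low Prominin cells, but 6.07, 5.90 and 6.30 in GFP-high and 4.58, 4.33 and 5.87 in GFP-low ungated cells. The order of the GFP groups was thus opposite in the 2 gates, with a gap of -2.46 (SE 0.51, adjusted p = 0.00557), although only 1 of the 17 arrays was clearly above the median. For Scn3a the gap of 0.83 lost its call without any 1 of 5 arrays, at an adjusted p of 0.052 to 0.074, and with probe sets averaged (0.55, adjusted p = 0.187). Marker genes differed by the same test. Of 15 neuron markers 12 had a higher value in the Prominin contrast and 0 a lower one. Lower values were called for 9 of 12 radial glia, 3 of 6 basal progenitor and 4 of 8 Cajal-Retzius markers, and higher ones for 0. The part of these markers' cells in the channel gaps was not tested.

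**Figure D4:**
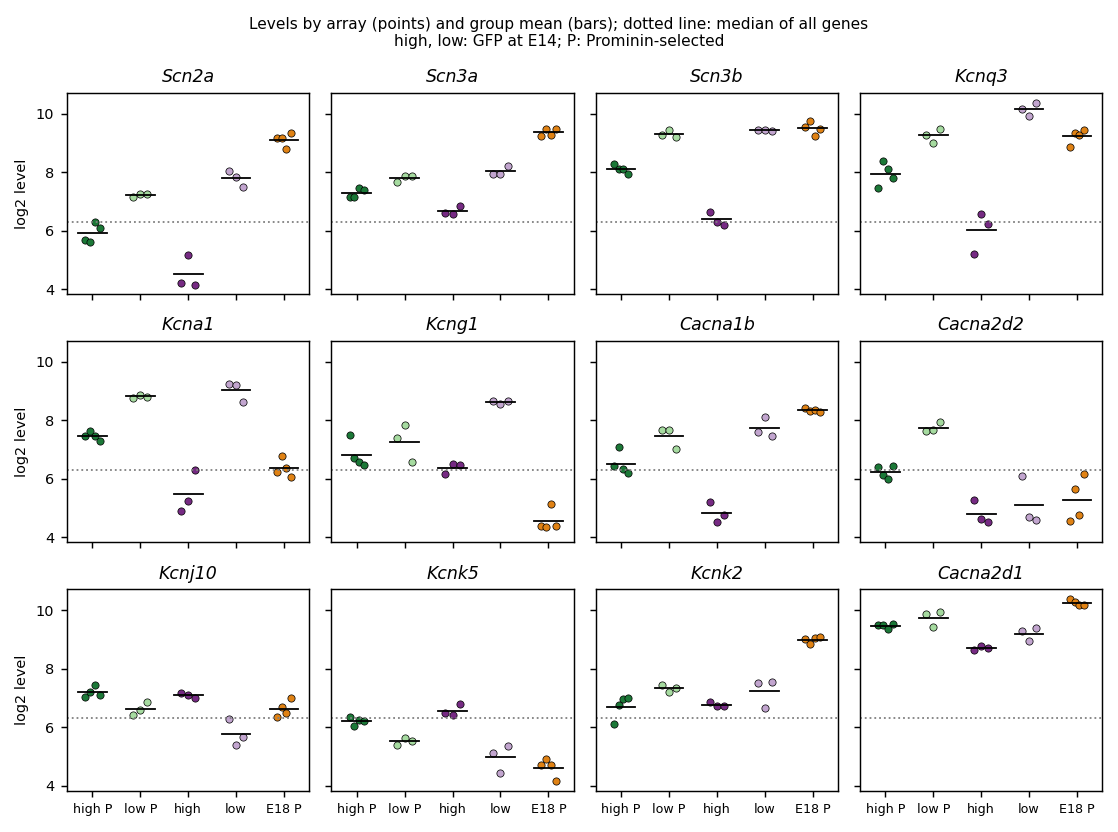
Log2 level of 12 channel genes on every array, grouped as high P and low P (GFP-high and GFP-low Prominin cells at E14), high and low (ungated cells at E14) and E18 P. Points are arrays, bars are group means and the dotted line is the median of all genes. Scn2a, Scn3b, Kcnq3 and Cacna1b have their lowest group mean in GFP-high ungated cells, Kcng1 in E18 cells, and the means of Kcnj10 and Kcnk5 exceed those of GFP-low cells in both GFP-high groups of E14.

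The start regions of 4 of these genes are shown to set side by side members that moved in opposite directions with GFP in ungated cells: Scn2a and Cacna1b, which fell, and Kcnj10 and Kcnk5, which rose. Only Scn2a among them was also called in Prominin cells. They were picked after their values had been seen. The sequences are RefSeq promoter windows of mouse assembly GRCm38.p6, from 250 bases before to 50 bases after the annotated start, in the direction of the gene. Capitals mark the letters GGGCGG on either strand (CCGCCC when read on the other), which are the core of the GC box bound by Sp1, and would mark TATAAA likewise. The 2 motifs have no letter in common and so cannot overlap.
Scn2a: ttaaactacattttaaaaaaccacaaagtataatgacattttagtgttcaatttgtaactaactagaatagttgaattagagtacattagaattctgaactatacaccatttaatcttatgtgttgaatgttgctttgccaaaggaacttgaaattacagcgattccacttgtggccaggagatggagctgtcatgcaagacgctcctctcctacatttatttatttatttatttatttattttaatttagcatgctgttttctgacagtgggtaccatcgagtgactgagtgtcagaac
Cacna1b: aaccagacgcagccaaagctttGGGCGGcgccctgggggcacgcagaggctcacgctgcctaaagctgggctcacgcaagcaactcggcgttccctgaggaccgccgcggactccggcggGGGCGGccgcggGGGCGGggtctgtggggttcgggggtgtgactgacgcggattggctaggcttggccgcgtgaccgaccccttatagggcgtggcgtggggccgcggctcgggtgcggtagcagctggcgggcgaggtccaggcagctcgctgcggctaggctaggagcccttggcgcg
Kcnj10: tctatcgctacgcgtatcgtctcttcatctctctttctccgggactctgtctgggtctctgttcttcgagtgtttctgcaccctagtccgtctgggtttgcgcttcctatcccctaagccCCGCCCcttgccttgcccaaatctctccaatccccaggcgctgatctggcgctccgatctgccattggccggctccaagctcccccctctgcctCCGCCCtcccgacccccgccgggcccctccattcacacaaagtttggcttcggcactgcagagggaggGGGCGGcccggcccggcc
Kcnk5: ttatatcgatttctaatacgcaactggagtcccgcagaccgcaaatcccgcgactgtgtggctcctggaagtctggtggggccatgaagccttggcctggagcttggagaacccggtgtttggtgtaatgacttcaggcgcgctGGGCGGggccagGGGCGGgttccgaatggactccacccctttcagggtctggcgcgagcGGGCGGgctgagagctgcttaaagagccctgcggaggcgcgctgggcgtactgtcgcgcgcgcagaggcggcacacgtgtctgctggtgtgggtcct
The window of Scn2a lies on the plus strand at chr2:65620519-65620818, that of Cacna1b on the minus strand at chr2:24763103-24763402, that of Kcnj10 on the plus strand at chr1:172340960-172341259, and that of Kcnk5 on the minus strand at chr14:20181733-20182032. Scn2a has 2 annotated windows, and the more upstream of them is shown.

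The Scn2a window held 33% G and C, 3 CpG pairs and no GGGCGG. The Cacna1b window held 72.3% G and C, 35 CpG pairs and 3 copies of GGGCGG, and the windows of Kcnj10 and Kcnk5 each held 63.7% G and C and 3 copies, with 21 and 26 CpG pairs. The median of all RefSeq windows was 52.7% G and C and 7 CpG pairs. Whether window content goes with the direction of change was not tested. Of the 119 channel genes 91 matched the table, with 126 windows. Of these windows 45.2% held GGGCGG, against 35.7% of all 32851 windows, and 5.56% held TATAAA, against 13.6%. The left and right parts of the element bound by the neuronal repressor REST were searched as TTCAGCACC and GGACAG on either strand, each counted by itself. The first was in 0 of the 126 windows and in 0.371% of all windows, and the second in 25.4% against 22.2%. These are matches of letters, and no binding was measured.

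The comparison of E18 with E14 GFP-high Prominin cells sets Prominin-positive cells of 2 ages side by side. E18 cells were sorted without a division by GFP level and the E14 cells were the GFP-high part, so age and GFP gate differ together. The 18S signal differed as well, at 302 to 583 in E18 cells and 2446 to 5192 in E14 GFP-high Prominin cells. The part of the gate and of this signal in the results was not tested. More channel genes were higher at E18 than lower. Of the 119, 35 were called (29.4%, against 26.7% of all genes), 28 of them higher (23.5%, against 10.2% of all genes) and 7 lower (5.88%, against 16.5%). The median change was 0.15, against -0.07 for all genes. Of the 35 called, 28 had a group mean above the median in at least 1 of the 2 groups, and the rest were under it in both. The higher genes comprised 4 of 8 sodium pores, 2 of 3 sodium beta subunits, 4 of 9 calcium pores, 5 of 15 calcium auxiliary genes and 7 of 22 voltage-gated potassium pores, while of the 15 inward rectifiers 1 was called, and it was lower. With the values as deposited, without equalising the distributions, the split was 39 higher and 4 lower, and the median of all genes moved by 0.10.

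Scn2a had the largest rise. It measured 9.18, 9.15, 8.78 and 9.33 in E18 cells, against 5.68, 5.62, 6.31 and 6.10 in E14 GFP-high Prominin cells. The E18 arrays were all more than 2 log2 units above every E14 array, and the difference was 3.19 (SE 0.18, adjusted p = 4.9e-07). Scn3a rose 4.22-fold (SE of the log2 change 0.14, adjusted p = 1.11e-06), from 7.13 to 7.47 at E14 to 9.24 to 9.48 at E18. Scn8a rose 3.19-fold (SE 0.16, adjusted p = 1.64e-05) and Scn3b 2.63-fold (SE 0.15, adjusted p = 3.31e-05). Scn1a rose by 1.32 (SE 0.19, adjusted p = 0.000304), and that call was lost when all its probe sets were averaged (adjusted p = 0.158).

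Kcnk2 encodes the mechanically and lipid-gated leak channel TREK1. It measured 9.00, 8.86, 9.04 and 9.10 in E18 cells and 6.12, 6.76, 6.95 and 6.99 in E14 GFP-high Prominin cells. The groups lay well apart, 4.91-fold (SE 0.19, adjusted p = 3.91e-06). Within E14, Kcnk2 was not called in either GFP contrast. It differed by -0.63 (SE 0.20, adjusted p = 0.166) in Prominin cells, where the groups did not overlap. In ungated cells, where they did, it differed by -0.47 (SE 0.27, adjusted p = 0.327). Kcnk1, the leak channel TWIK1, rose by 2.00 (SE 0.24, adjusted p = 7.58e-05) to a mean just above the median. The A-type pore Kcnd2 rose 2.95-fold (SE 0.21, adjusted p = 0.000169), and Kcnq3 2.45-fold (SE 0.21, adjusted p = 0.000658). Among calcium channels, Cacna1d (1.95, SE 0.21, adjusted p = 3.34e-05), Cacna1b (1.82, SE 0.21, adjusted p = 4.59e-05) and Cacna1c (1.60, SE 0.23, adjusted p = 0.000287) rose.

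The genes that were lower at E18 included several with a mean above the median in E14 GFP-high Prominin cells. Kcng1 measured 4.39, 4.37, 5.14 and 4.38 in E18 cells and 7.49, 6.70, 6.59 and 6.47 in E14 GFP-high Prominin cells. All E18 arrays lay under the median and all E14 arrays above it, and the difference was -2.24 (SE 0.30, adjusted p = 0.000152). Kcnn1, a small-conductance channel opened by calcium, was 2.67-fold lower (SE 0.19, adjusted p = 0.000144) and Kcna1 2.15-fold lower (SE 0.16, adjusted p = 0.000361). Kcnk5 fell by 1.60 (SE 0.17, adjusted p = 2.92e-05), from 6.04 to 6.37 at E14 to 4.15 to 4.91 at E18. Its E14 mean of 6.22 was itself just under the median. Kcnj10 was 1.49-fold lower (adjusted p = 0.0271). That call was lost on the values as deposited (-0.33, adjusted p = 0.185) and without E14 GFP-high replicate 2 or 3 or E18 replicate 2 or 4 (adjusted p of 0.0534 to 0.0848).

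**Figure D5:**
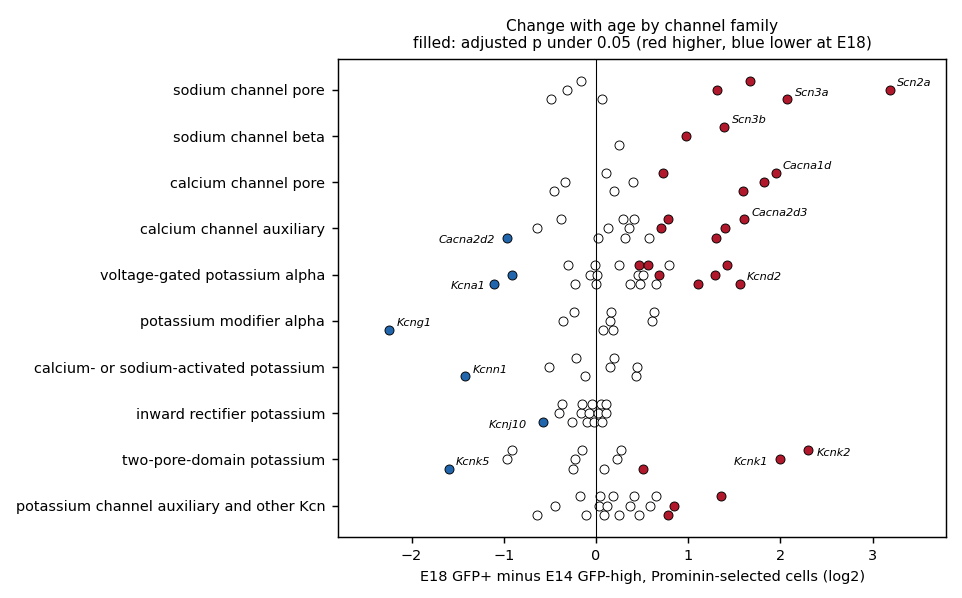
Log2 difference between E18 cells and E14 GFP-high Prominin cells for each of the 119 channel genes, by family. Filled points passed an adjusted p of 0.05 (28 red, higher at E18, and 7 blue, lower), and points are spread vertically only to separate them. The 4 called sodium pores and 4 called calcium pores all lie to the right of 0, and Kcng1, Kcnk5, Kcnn1 and Kcna1 are the leftmost.

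E18 cells were also set against E14 GFP-low Prominin cells. This comparison shares the E18 arrays with the previous one, so the values stand side by side only. Here 23 channel genes were called (19.3%, against 17.4% of all genes), 15 higher at E18 (12.6%, against 6.02%) and 8 lower (6.72%, against 11.4%), with 24 higher and 6 lower on the values as deposited. Scn2a rose 3.70-fold (SE 0.20, adjusted p = 7.83e-05), Kcnk2 3.17-fold (SE 0.20, adjusted p = 0.000207), Scn3a 2.95-fold (SE 0.15, adjusted p = 4.35e-05) and Scn8a 2.48-fold (SE 0.18, adjusted p = 0.000432). Kcnc2, the fast-gating pore Kv3.2, was above the median in E18 cells alone, at 7.54, 6.85, 7.34 and 7.09 against 5.68, 5.55 and 5.72 in E14 GFP-low Prominin cells. Its groups did not overlap and differed by 1.56 (SE 0.20, adjusted p = 0.000268). Kcnq1ot1, the noncoding transcript from the imprinted Kcnq1 locus, rose 3.20-fold (SE 0.19, adjusted p = 0.00014).

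On the lower side, Kcna1 was 5.49-fold below its E14 GFP-low Prominin level (SE of the log2 change 0.18, adjusted p = 7.64e-06), at 6.23, 6.79, 6.37 and 6.06 against 8.78, 8.88 and 8.81. All 4 E18 arrays were nearly 2 log2 units or more under every E14 GFP-low array. Kcng1 fell by 2.70 (SE 0.32, adjusted p = 0.000191), Cacna2d2 by 2.47 (SE 0.32, adjusted p = 0.000328) and Cacna1e by 1.39 (SE 0.32, adjusted p = 0.00963). Kcnn1 was 2.75-fold lower (SE 0.20, adjusted p = 0.000507). Cacna1b, Cacna1c, Kcnk1 and Scn1a were higher by 0.89, 0.93, 0.93 and 0.82 (adjusted p of 0.0157, 0.0225, 0.0277 and 0.0174), and each of these calls was lost without 1 or more single arrays. Cacna1b was lost without GFP-low replicate 3 (0.0693), Scn1a without GFP-low replicate 2 or 3 (0.0661 to 0.0716), Cacna1c without GFP-low replicate 1 or 2 or E18 replicate 4 (0.0628 to 0.0913), and Kcnk1 without GFP-low replicate 1 or 3 or E18 replicate 3, 4 or 5 (0.0614 to 0.101). With probe sets averaged, Scn1a differed by 0.03 and Kcnk1 by 0.37 (adjusted p of 0.933 and 0.299).

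Marker genes of other cells differed between E18 and E14 cells too. Of the 8 interneuron markers 7 were higher at E18 in both comparisons, with summed signals of 3228 to 3634 in E18 cells and 87.5 to 925 in the 4 E14 groups. The 15 neuron markers gave 11 higher and 1 lower against GFP-high Prominin cells, and 4 higher and 4 lower against GFP-low Prominin cells, with sums of 32444 to 36742 at E18. Of 7 oligodendrocyte lineage markers, 3 were higher and 1 lower at E18 against GFP-high Prominin cells, and 3 were higher against GFP-low Prominin cells. Of 9 astroglia markers, 4 were higher and 2 lower, and then 3 higher and 2 lower. The 12 radial glia markers gave 2 higher and 7 lower against GFP-high Prominin cells, and 3 higher and 5 lower against GFP-low Prominin cells, with Prom1, the gene of Prominin, among the lower in both. Of 6 basal progenitor markers 5 and then 4 were lower. Of 8 Cajal-Retzius markers, 4 were higher and 1 lower against GFP-high Prominin cells, and 1 higher and 5 lower against GFP-low Prominin cells. Their summed signal was 1075 to 2045 in E18 cells, 664 to 812 in GFP-high Prominin cells and 3685 to 5031 in GFP-low Prominin cells. The part of these differences in the channel results was not tested. Markers of endothelium, microglia and pericytes had group means of 4.10 to 6.63, against 4.18 to 6.29 for the genes of other organs. Of 9 pericyte and meninges markers 2 were higher at E18 against GFP-high Prominin cells. Of 6 erythroid markers, 1 was higher and 1 lower at E18 against GFP-low Prominin cells. Their summed signal was 150 to 953 in GFP-low Prominin cells, where the highest mean was 8.23. The part of these markers was not tested either.

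Prominin-selected and ungated samples of one GFP level differ by the Prominin gate, and also by labelling kit on all but 1 ungated array. At E14 they differ too in 18S signal (2292 to 5192 against 175 to 627) and in the Gapdh ratio (0.54 to 2.30 against -0.25 to 0.18). GFP-high ungated replicate 1, the exception labelled with MessageAmp, lay within the ungated ranges (427 and -0.19). The kit term below therefore does not stand for these signals, and their part in the results was not tested. In GFP-high cells 28 channel genes were called (23.5%, against 20.7% of all genes), 26 of them higher in Prominin cells (21.8%, against 11.8%) and 2 lower (1.68%, against 8.98%). Only 16 of the 28 had a group mean above the median in either group, and the rest lay in the range of genes that are off. The arrays of the 2 groups did not overlap for 35 channel genes (29.4%, against 30.6% of all genes). Kcna1 rose by 1.99 (SE 0.27, adjusted p = 8.44e-05), Kcnq3 by 1.93 (SE 0.28, adjusted p = 0.000164), Cacna1b by 1.68 (SE 0.24, adjusted p = 0.00011) and Scn2a by 1.41 (SE 0.24, adjusted p = 0.00062). Cacng4 rose 3.38-fold (SE 0.26, adjusted p = 0.000166) and Scn3b 3.30-fold (SE 0.16, adjusted p = 3.16e-06). With its probe sets averaged, Cacng4 differed by 0.62 and was not called (adjusted p = 0.0577). On the probe set used, it measured 8.88, 8.48, 9.41 and 8.67 in Prominin cells and 7.43, 6.97 and 6.91 in ungated cells, with no overlap. With the labelling kit as a term in the fit the number called was 16. Among all genes it was 1688, against 3774 without the term. Kcna1 (2.58), Kcnq3 (2.73), Cacna1b (1.30), Scn2a (1.71), Cacng4 (1.43) and Scn3b (1.46) remained called. Cacna1e (0.31), Scn8a (0.59) and Scn3a (0.67) were then no longer called (adjusted p of 0.718, 0.149 and 0.0787). In the Prominin cells 9 of 15 neuron markers and 6 of 8 interneuron markers were higher, while 6 of 12 radial glia markers and 3 of 6 basal progenitor markers were lower. Their part was not tested.

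In GFP-low cells 12 channel genes were called (10.1%, against 19.2% of all genes), 6 higher and 6 lower in Prominin cells (5.04% each way, against 10.8% higher and 8.46% lower among all genes). Of the 12, 11 had a group mean above the median in at least 1 of the 2 groups. Cacna2d2 measured 7.64, 7.67 and 7.94 in Prominin cells and 6.10, 4.69 and 4.58 in ungated cells. Every Prominin array was above the median and no ungated one was, and the difference was 2.63 (SE 0.40, adjusted p = 0.000349). Cacna1h was 2.79-fold lower in Prominin cells (SE 0.22, adjusted p = 0.000333), at 7.38, 7.84 and 7.27 against 9.27, 8.87 and 8.79. Kcnv1 fell by 1.67 (SE 0.29, adjusted p = 0.000825) and Kcna3, the pore Kv1.3, by 1.10 (SE 0.27, adjusted p = 0.00838). Kcng1 was 2.56-fold lower (SE 0.31, adjusted p = 0.00563), a call lost at a constant of 1 (0.0502) and with probe sets averaged (-0.19, adjusted p = 0.619). Kcnj10 rose by 0.85 (SE 0.22, adjusted p = 0.0142), but not past the threshold without GFP-low ungated replicate 2 or Prominin replicate 3 (0.0645 to 0.0757).

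All 3 GFP-low ungated arrays used 1 kit and all 3 GFP-low Prominin arrays the other, so the gate and the kit differ together here. With the kit term, which rests on GFP-high ungated replicate 1, 373 calls were made among all genes, against 3496 without it. Of the channel genes 2 were called. Only 1 of them, Cacna1h (-1.74, adjusted p = 0.0423), was among the 12 called without that term. Cacna2d2 (1.92) then had an adjusted p of 0.167, Kcnv1 (-1.18) one of 0.232 and Kcng1 (-1.03) one of 0.357. The number called was 6 without GFP-low Prominin replicate 3 and 7 without GFP-low ungated replicate 2 (2446 and 2457 among all genes). Of the Cajal-Retzius markers 7 of 8 were higher in the Prominin cells, with sums of 3685 to 5031 against 417 to 696, and 10 of 15 neuron markers were lower. Of the other lists, 5 of 12 radial glia, 5 of 6 basal progenitor and 5 of 8 interneuron markers were higher. Reln, the secreted protein that marks Cajal-Retzius neurons, was at a mean of 11.82 in GFP-low Prominin cells and 8.64 in GFP-low ungated cells. Cacna2d2 and Reln both had their highest mean in GFP-low Prominin cells, and the part of such cells in the level of Cacna2d2 was not tested.

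Other genes of membrane excitability, outside the channel genes described here, were taken from a list of 49, of which 42 were measured. Of the 42, 10 were lower and 1 higher in GFP-high ungated cells, where 8.16% of all genes were lower and 7.61% higher. In GFP-high Prominin cells 2 were lower, against 1.20% of all genes. At E18, 14 were higher and 5 lower against GFP-high Prominin cells, where 10.2% of all genes were higher and 16.5% lower. Against GFP-low Prominin cells 7 were higher and 5 lower, where 6.02% of all genes were higher and 11.4% lower. Ank3, the anchor of sodium channels at the axon initial segment, fell by 2.93 (SE 0.37, adjusted p = 0.0024) with GFP in ungated cells. The axonal adhesion molecule Cntn2, which gathers potassium channels beside the node, fell by 3.37 (SE 0.25, adjusted p = 0.000643). Cntn2 and Abcc8, the sulfonylurea receptor that pairs with Kcnj11, were the 2 lower in Prominin cells, by 0.78 (SE 0.18, adjusted p = 0.0463) and 0.96 (SE 0.22, adjusted p = 0.0478). Fgf14, which binds the tail of sodium channel pores, had the largest rise of the list at E18, by 2.86 (SE 0.18, adjusted p = 7.2e-07) against GFP-high and 2.58 (SE 0.19, adjusted p = 7.7e-06) against GFP-low Prominin cells. Gem, a small GTPase that inhibits calcium channels, was the 1 gene higher in GFP-high ungated cells, by 1.82 (SE 0.32, adjusted p = 0.00924).

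Several channel genes lie next to each other in the genome. With neighbours defined as genes with no other protein-coding gene of the RefSeq GRCm38.p6 table between them, 32 of the 119 lay in 14 runs, and 4 runs held 3 genes each. On chromosome 2, Scn3a lies beside Scn2a, and both were called in the same direction in all of the 4 comparisons with 2 groups in which Scn3a was called. In a second run on that chromosome, Scn1a was higher at E18, while its neighbours Scn9a and Scn7a stayed under the median on all 17 arrays and were called in none. On chromosome 6, Kcna1 lies between Kcna5 and Kcna6. Kcna1 was lower at E18 in both comparisons, and Kcna5, which was under the median on all 17 arrays, was called higher in both. On chromosome 1, Kcnj10 lies beside Kcnj9, which stayed below the median in every group. Neighbours thus often differed in whether they were above the median at all.

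Where a gene had several probe sets, these often did not all pass. Among the called genes with more than 1 probe set, all probe sets passed in the same direction for 6 of 21 in the ungated GFP contrast, 1 of 7 in the Prominin GFP contrast and 3 of 27 at E18 against GFP-high Prominin cells. The 2 probe sets of Kcnq3 were both lower in both GFP contrasts, and the 4 of Cacna1b were all lower in ungated cells (-2.88 to -1.96). Of the 4 probe sets of Scn2a, 3 were higher at E18 against GFP-high Prominin cells and none was lower. Called probe sets went in opposite directions for Cacna2d1 in both age comparisons (1 higher and 2 lower, then 1 higher and 1 lower), for Cacna1d between Prominin and ungated GFP-high cells, and for Kcnc1 between the GFP-low groups. No direction is given for these genes in those comparisons other than that of the probe set used, which for Cacna2d1 was 0.79 and 0.52 and turned to -0.17 and -0.22 when probe sets were averaged.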

How the data were processed

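RNA of 17 sorted samples was hybridised to Affymetrix mouse arrays, 1 array per sample. The deposited values are intensities on a linear scale, 1 per probe set, and the values show that the authors scaled every array to 1 trimmed mean. The software that made them is not given in the sources used here. Extraction and the 2 labelling kits are as the labels' protocols give them.

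A constant of 16 was added, log2 taken and the arrays quantile normalised over 45037 probe sets, with 64 control probe sets left out. Of these, 34945 carried 1 gene symbol and formed 18193 genes, each read from its probe set of highest mean. Differences were fitted with limma 3.58.1 in R 4.3.3 (lmFit and eBayes, two-sided), with the Benjamini-Hochberg adjustment over all genes and calls at an adjusted p under 0.05. Comparisons among Prominin samples used their 11 arrays, the ungated GFP contrast its 6, and the others all 17. The fit was tested on simulated data, and figures were drawn with matplotlib 3.10.9 in Python 3.11.15. A linear fold is given only where both group means exceeded the median of all genes. The number of arrays limits the precision.

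The genes and lists were chosen with earlier results of these data known. The genes named were a fixed set and, per comparison, the called genes with the largest changes whose groups did not overlap and whose higher mean exceeded the median (up to 12 each way in the GFP contrasts and 6 in the others). Kcnd3, Kcna5, Kcna6, Kcnj9, Kcnc1, Scn7a, Scn9a, Scn10a and Scn11a, Kcnk5 at E18, Kcna3 in GFP-low cells, and Kcnk12, Kcnn1 and Kcnn2 in the ungated contrast were named after their values had been seen. So were the marker genes Prom1 and Reln and the genes given with values from the list of other excitability genes. Alternatives changed the constant, the normalisation, the filter on dim genes, the use of probe sets, a block on replicate number, the labelling kit, and each array left out in turn. Replicate numbers are shared between groups. Deviations of same-numbered samples correlated at -0.14 to 0.04, so the main fits used no pairing. Such correlations cannot exclude that same-numbered samples shared a sort or litter.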

Additional observations from a re-analysis of the deposited data

Results flagged for a closer look

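Of the 76 checks for an array far from the others of its group (38 named genes in each of the 2 groups of 4), 2 found one, where chance gives about 1 in 20. Kcnmb4, a subunit of the large-conductance potassium channel, was at 6.60 in E14 GFP-high Prominin replicate 4 and at 7.39 to 7.53 in the other 3 replicates. Kcng1 was at 5.14 in E18 replicate 4 and at 4.37 to 4.39 in the other 3, all of them under the median.

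For 14 named genes the GFP contrast differed between Prominin-selected and ungated cells by the interaction test. The difference between contrasts was 2.82 for Kcnq3, 2.46 for Kcnv1, 2.27 for Cacna1e, 2.20 for Kcna1 and 1.97 for Scn2a. It was 1.95 for Cacna1b, 1.92 for Cacna1h, 1.86 for Scn3b, 1.79 for Kcng1 and 1.73 for Kcnmb4. Cacnb4 (1.65), Scn8a (1.27) and Scn3a (0.83) had smaller differences, and Kcna7 alone had a negative one (-2.46). Adjusted p-values from limma ran from 0.00032 for Scn3b to 0.0277 for Scn3a.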

How the results depend on the processing

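Among the called comparisons of single named genes, 1257 of 1430 recomputed values kept their direction and call, 170 kept the direction and lost the call, and 3 turned: Cacna2d1 at E18 to -0.17 against GFP-high and -0.22 against GFP-low Prominin cells with probe sets averaged, and Kcnq3 between the GFP-low groups to 0.31 with the kit term. In the Prominin GFP contrast, 0 of the 8 calls held under every alternative, against 15 of 21 in the ungated one and 14 of 17 at E18 against GFP-high Prominin cells. The Prominin GFP contrast called 4 channel genes with a constant of 1, 4 with probe sets averaged and 16 without the dimmest 40% of genes (74, 143 and 510 among all genes, against 305). With the replicate number as a block, limma called 0 there, with 31 at an unadjusted p under 0.05, and 12 at E18 against GFP-low Prominin cells, and 25, 28, 26, 8 and 16 in the ungated GFP contrast, at E18 against GFP-high Prominin cells, between the GFP-high groups, between the GFP-low groups and in the interaction. Among all genes the block gave 8 calls in the Prominin GFP contrast, against 305 in the main fit. At E18 against GFP-low Prominin cells it gave 1128, against 3166. The kit term gave 16 calls between the GFP-high and 2 between the GFP-low groups (1688 and 373 among all genes), where averaging probe sets gave 19. The causes were not tested. Leaving out 1 array in turn gave 4 to 8 calls in the Prominin and 24 to 29 in the ungated GFP contrast, 28 to 35 and 18 to 23 at E18 against GFP-high and GFP-low Prominin cells, 19 to 27 and 6 to 18 between the GFP-high and GFP-low groups, and 14 to 19 in the interaction. Without the dimmest 40% of genes, whose removal raises the median, the channel genes above it numbered 2 in GFP-high ungated, 7 in GFP-high Prominin, 14 in GFP-low ungated, 8 in GFP-low Prominin and 15 in E18 cells, and against the median over all probe sets 36 and 46 in the GFP-high ungated and Prominin cells. Leaving out 1 array, an alternative added after the data were seen, gave 20 to 22 and 27 to 31 in the GFP-high ungated and Prominin cells, 36 to 41 and 38 to 40 in the GFP-low ungated and Prominin cells, and 37 to 39 in E18 cells. Genes under the median are near background, where a constant of 16 shrinks their differences.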
